A study of Mus musculus with 39 samples.

Results

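T247, a small-molecule inhibitor that is selective for histone deacetylase 3 (HDAC3), was compared with no treatment in mouse embryos at the 2-cell stage. The comparison takes in 6 of the 39 arrays of the series, the 3 labelled as T247 and the 3 labelled as control at this stage, and it was made across 15992 genes. All embryos were B6D2F1 x ICR, made by in vitro fertilization of MII oocytes of B6D2F1 females with sperm of ICR males. No transgene or engineered mutation is described for either group. Treated zygotes were held in 10 µM T247 for 6 h from 4 h post-insemination and then returned to plain medium, whereas control embryos were cultured without the inhibitor. Both groups were collected 24 h post-insemination, so that the treated embryos had been out of the inhibitor since the 1-cell stage. Each array held RNA pooled from 100 embryos, so differences among the embryos of a pool were not seen, and fewer cells of a kind cannot be told apart from less RNA per cell. The remaining arrays hold the 1-cell and 4-cell embryos of both groups, embryos treated with MGCD0103 (an inhibitor of class I HDACs), and untreated oocytes, 8-cell embryos, morulae and blastocysts.

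HDAC3 removes acetyl groups from histone tails as the enzyme of nuclear receptor corepressor complexes, in which it depends on a scaffold protein such as NCoR1 for its activity, and loss of acetyl groups is generally linked to lower transcription. In the mouse, the fertilized egg starts from stored oocyte mRNAs and opens its own genome in a minor wave at the 1-cell stage and a major wave at the 2-cell stage. The major wave brings up genes of ribosome assembly, RNA processing and translation while maternal mRNAs are cleared.

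Genes were compared on normalized log2 signals, in which a difference of 1 is a fold change of 2. An LFC is the mean of the 3 T247 arrays minus the mean of the 3 control arrays. DEGs were the genes whose signal differed 2-fold or more with an adjusted p under 0.05 (limma, Benjamini-Hochberg over all genes tested). A signal was called well above background by the flag of the scanner software, which was set for 53.2 to 57.5% of the named and unnamed probes on the T247 arrays and for 47.7, 54.3 and 50.8% on control replicates 1, 2 and 3.

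The arrays themselves set limits that touch every value below. Control replicate 1 stood apart from its group, with a Pearson correlation across genes of 0.935 and 0.945 with the other control arrays, whereas control replicates 2 and 3 correlated at 0.994 and the T247 arrays at 0.994 to 0.995. In control replicate 1, 2470 genes lay at least 2-fold below the mean of the other control arrays, 1605 of them genes that rise from the 1-cell to the 4-cell stage, and 2521 lay at least 2-fold above it, 1815 of them genes that fall. The 3 T247 arrays were on slide 4 and the control arrays on slides 1 to 3, so that slide and treatment cannot be told apart. Scan date differed too, earliest for control replicate 1, next for control replicates 2 and 3, and later for the T247 arrays. Replicate 1 of the other untreated stages shared its slide and scan date. With all stages scaled together, it correlated at 0.986 to 0.995 with the other replicates of its stage. All 31 transcripts on the array from a list for transient 2-cell activation were well above background on each of the 6 arrays. Not all are particular to this stage. The untreated mean of Dppa2, with all stages scaled together, was 13.3 in germinal vesicle (GV) oocytes and 10.5 at the 2-cell stage. Of 16 markers of cumulus and granulosa cells, 4 to 5 were well above background on the control arrays and 7 to 9 on the T247 arrays, while their summed linear signal was 14913 to 18765 on the control and 8535 to 8933 on the T247 arrays. Foxl2, Amhr2 and Cyp19a1, which mark granulosa cells, were well above background on all 6 arrays, whereas Fshr, Lhcgr, Hsd3b1 and Inha were on none. Of 10 markers of spermatids and sperm, 3 to 6 were well above background on the control arrays and 6 on each T247 array, with a summed signal of 1538 to 1774 against 944 to 1167. Prm1, Prm2 and Ldhc were well above background on all 6 arrays, and Tnp2, Odf1 and Smcp on none.

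T247 changed 3969 of 15992 genes (24.8%) at the 2-cell stage. More genes fell than rose, with 2569 lower (16.1%) and 1400 higher (8.75%) than in the control. The rises were led by the transcription factors Gata2, Xbp1 and Vax2. The falls were led by Eid2, Apom and Smcr8, which untreated embryos bring up between the 1-cell and the 4-cell stage. Among the gene groups, ribosomal proteins, ribosome assembly factors, splicing factors, translation initiation factors and proteasome subunits held many falls and almost no rises, and homeobox genes and lineage factors held more rises than falls. The median LFC of all genes was -0.26. Scaling by full quantile normalization moved this median to -0.04, and the DEGs then split into 1888 higher and 1893 lower (49.9% and 50.1%, against 35.3% and 64.7%). With scaling to the 75th percentile they split into 1893 higher and 1687 lower (52.9% and 47.1%).

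To show what stands in front of the most affected genes, the promoter windows of the leading pair in each direction are given (RefSeq, GRCm38.p6, a window around the annotated start, mostly before it, 5′ to 3′ on the strand of the gene). Capitals mark matches to a motif on either strand. The motifs searched were the CCAAT box (CCAAT), the TATA box (TATAAA), the E-box (CACGTG), the cAMP response element (TGACGTCA), the NRF1 core (GCGCATGCG), an ETS site (CCGGAAGT), the GC box (GGGCGG) and a YY1 site (AAGATGGCG), none of which overlapped another in these windows.
Gata2: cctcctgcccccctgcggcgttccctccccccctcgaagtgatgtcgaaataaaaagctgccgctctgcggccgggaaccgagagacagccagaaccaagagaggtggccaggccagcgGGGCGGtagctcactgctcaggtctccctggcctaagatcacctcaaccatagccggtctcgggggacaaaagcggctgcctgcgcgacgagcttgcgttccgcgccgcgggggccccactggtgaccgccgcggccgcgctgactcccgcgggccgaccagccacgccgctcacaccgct
Xbp1: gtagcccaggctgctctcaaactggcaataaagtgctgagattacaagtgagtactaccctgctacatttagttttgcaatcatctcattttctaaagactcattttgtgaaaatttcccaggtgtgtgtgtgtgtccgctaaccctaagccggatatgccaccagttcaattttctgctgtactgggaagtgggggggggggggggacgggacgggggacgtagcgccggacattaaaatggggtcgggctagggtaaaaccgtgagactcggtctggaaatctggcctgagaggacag
Eid2: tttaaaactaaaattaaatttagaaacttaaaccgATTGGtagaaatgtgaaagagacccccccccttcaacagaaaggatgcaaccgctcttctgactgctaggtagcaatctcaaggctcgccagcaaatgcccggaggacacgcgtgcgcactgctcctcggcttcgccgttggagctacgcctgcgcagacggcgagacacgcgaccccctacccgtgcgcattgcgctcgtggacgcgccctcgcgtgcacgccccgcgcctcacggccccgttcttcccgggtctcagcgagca
Apom: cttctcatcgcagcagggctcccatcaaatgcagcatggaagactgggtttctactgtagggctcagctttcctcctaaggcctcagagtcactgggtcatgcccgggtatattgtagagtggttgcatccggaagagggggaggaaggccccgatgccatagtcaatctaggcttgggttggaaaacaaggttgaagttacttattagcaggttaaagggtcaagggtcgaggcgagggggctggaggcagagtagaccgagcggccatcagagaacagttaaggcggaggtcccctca
The Gata2 window (chr6:88193641-88193940, plus strand) is the first of 2 listed for the gene, has 69.3% G and C and 32 CpG, and holds a GC box, which 35.9% of the 27025 promoters listed hold. The Xbp1 window (chr11:5520391-5520690, plus strand) has 51% G and C and 10 CpG and holds none of the motifs. The Eid2 window (chr7:28267631-28267930, plus strand) has 59% G and C and 31 CpG and holds a CCAAT box on the minus strand, as 37.9% of all promoters do on either strand. The Apom window (chr17:35131752-35132051, minus strand) has 54.7% G and C and 9 CpG and holds none. A comparison of promoter composition over all DEGs is not reported here, since only 78.6% of the tested genes had a window.

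Gata2, a transcription factor of blood and trophoblast development, showed the largest rise among genes measured on all 6 arrays. Its log2 signal was 7.93, 6.03 and 6.17 on control replicates 1 to 3 and 12.17, 11.93 and 11.93 on the T247 arrays, a fold change of 39.4 (LFC 5.30, SE 0.35, adjusted p = 1.25e-09). The T247 arrays lay far above all control arrays, and in untreated embryos, with all stages scaled together, the mean signal of Gata2 was highest in the blastocyst at 12.9. Xbp1, the transcription factor of the unfolded protein response, gave 7.59, 6.07 and 5.93 in the control and 10.76, 10.66 and 10.74 after T247 (18.2-fold, LFC 4.19, SE 0.35, adjusted p = 1.65e-08). Its untreated mean was 13.4 in the morula and was higher still in the blastocyst. Vax2, a homeobox factor of the ventral eye, gave 7.64, 6.71 and 7.03 against 11.43, 11.33 and 11.06 (17.7-fold, adjusted p = 4.95e-11).

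Dapl1 gave 7.13, 5.37 and 4.56 in the control and 9.36, 9.48 and 9.55 after T247, a rise of 13.7-fold. Gm6811 rose 13.6-fold, from 5.08, 4.01 and 4.57 to 8.28, 8.42 and 8.26. Bcl3, a coactivator in the NF-kappaB pathway, gave 6.20, 8.63 and 8.30 against 11.52, 11.42 and 11.48, also 13.6-fold. In Gata2, Xbp1, Vax2, Dapl1 and Gm6811 control replicate 1 was the highest control array, and in Bcl3 it was the lowest. The T247 arrays lay above it in each, as the choice of these genes required. Adgrb1, an adhesion G protein-coupled receptor, rose 12.0-fold and Nrbp2, a pseudokinase, 11.2-fold, and their control arrays lay close together. Adjusted p for these 5 genes ran from 3.84e-10 to 4.74e-06.

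Eid2, an inhibitor of EP300-dependent transcription, showed the largest fall. Its log2 signal was 7.38, 10.24 and 9.95 on the control arrays and 4.62, 4.42 and 5.03 on the T247 arrays (22.7-fold lower, LFC -4.50, SE 0.45, adjusted p = 1.19e-07). Apom, the apolipoprotein that carries sphingosine-1-phosphate, gave 9.61, 11.11 and 10.74 against 6.45, 6.41 and 6.31 (17.1-fold lower, LFC -4.10, SE 0.25, adjusted p = 7.49e-10). Smcr8, a partner of C9orf72 in autophagy, gave 6.41, 10.20 and 9.71 against 4.42, 4.94 and 5.01 (15.9-fold lower). In Eid2, Apom and Smcr8 control replicate 1 was the lowest control array, and the T247 arrays lay below it, as the choice of these genes required.

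Genes of chromatin stood among the other large falls. Mta2, a subunit of the NuRD deacetylase complex, fell 11.6-fold from 12.09, 13.44 and 13.48 to 9.58, 9.32 and 9.51 (adjusted p = 1.16e-09). Cbx3, the heterochromatin protein HP1 gamma, fell 11.4-fold from 10.36, 12.44 and 12.21 to 8.29, 8.05 and 8.14 (adjusted p = 6.14e-08). Stmn3, a microtubule regulator of neurons, fell 13.9-fold, Zmat5, a protein of the minor spliceosome, 11.1-fold, and the uncharacterized 4930504D19Rik had an LFC of -3.42. All 16 genes named so far were chosen for having no overlap of the groups, so its absence is no result. Each of these 16 genes kept its call and direction under every alternative processing in which it was measured, except Stmn3 with the replicate number in the fit.

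**Figure D1:**
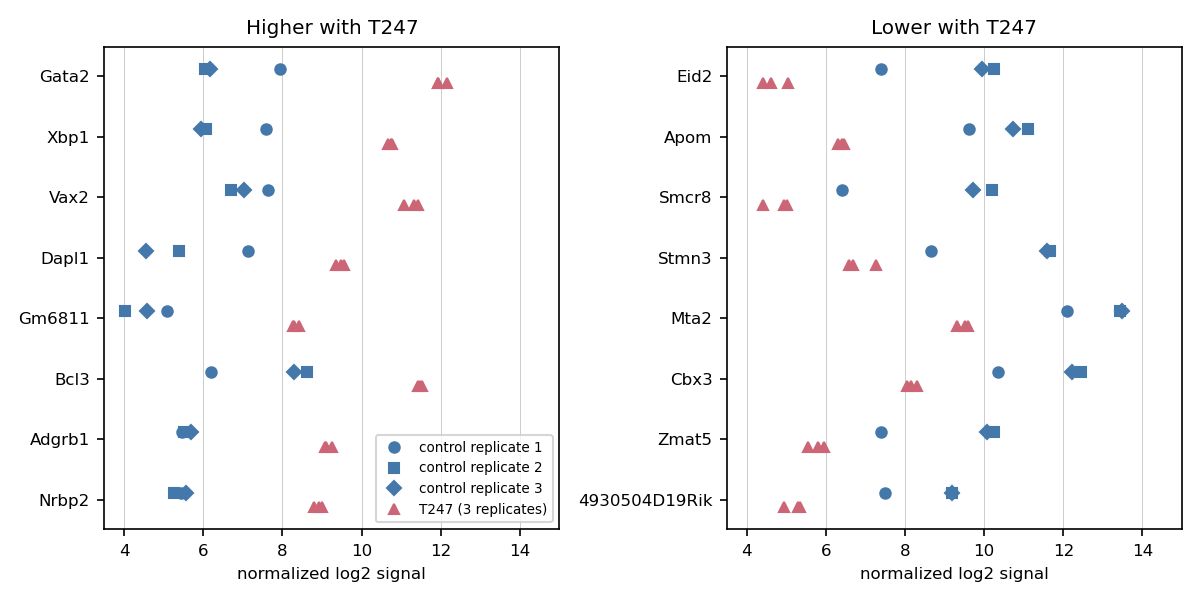
Normalized log2 signal (horizontal axes) of the 8 genes with the largest rise (left) and the 8 with the largest fall (right) among DEGs without overlap that were well above background on all 6 arrays. Each point is 1 array, with control replicates as blue circles, squares and diamonds and T247 replicates as red triangles. Control replicate 1 lies toward the T247 arrays in every gene on the right.

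The calls were repeated with each array left out in turn. With all arrays 1400 genes were higher and 2569 lower. Without control replicate 1 the counts grew to 1799 and 3257, without control replicate 2 they were 1350 and 2219, and without control replicate 3 they were 1390 and 2288. Leaving out a T247 array gave 1343 to 1378 higher and 2502 to 2543 lower. No DEG changed sign in any of these 6 fits.

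Of the 3969 DEGs, 2787 (70.2%) were called in the same direction without each of the control replicates, 965 higher (6.03% of all genes) and 1822 lower (11.4%). All 6 omissions were passed by 2733 genes. Control replicate 2 was the array on which most calls rested, with 751 DEGs lost without it, against 580 without control replicate 3, 351 without control replicate 1 and 252 to 280 without a T247 array. Leaving out control replicate 1 added 1438 genes, whereas each of the other omissions added 153 to 351. Among the genes added, 473 were lower genes of the rising class and 393 higher genes of the falling class.

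Pdgfa, Irf2bp2 and Islr2 show what was added. Pdgfa, a growth factor, gave 6.98, 13.32 and 13.01 on the control arrays and 8.99, 8.75 and 9.02 on the T247 arrays, so that the T247 arrays lay between control replicate 1 and the others. Its LFC was -2.18 with all arrays (adjusted p = 0.0624) and -4.25 without control replicate 1 (adjusted p = 1.35e-14). Irf2bp2, a corepressor of interferon regulatory factor 2, had adjusted p = 0.0513 with an LFC of -2.12, and -3.97 without that array. Islr2, a neuronal membrane protein, moved from -1.76 (adjusted p = 0.233) to -4.06. In all of them the T247 arrays lay above control replicate 1.

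Calls were lost in the same way. Ptf1a, a pancreatic transcription factor, gave 5.30, 4.44 and 3.49 against 7.49, 7.39 and 7.18, and its LFC of 2.95 (adjusted p = 0.0118) was no longer called without control replicate 3, where it was 2.49. Kcnk12, a potassium channel, was at least 2.99-fold lower, with a signal well above background on 2 control arrays and no T247 array, and lost its call without control replicate 2. Hs3st6, a heparan sulfate sulfotransferase, gave 5.36, 9.31 and 9.08 against 10.18, 10.03 and 10.12, and its LFC of 2.19 fell to 0.91 without control replicate 1.

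**Figure D2:**
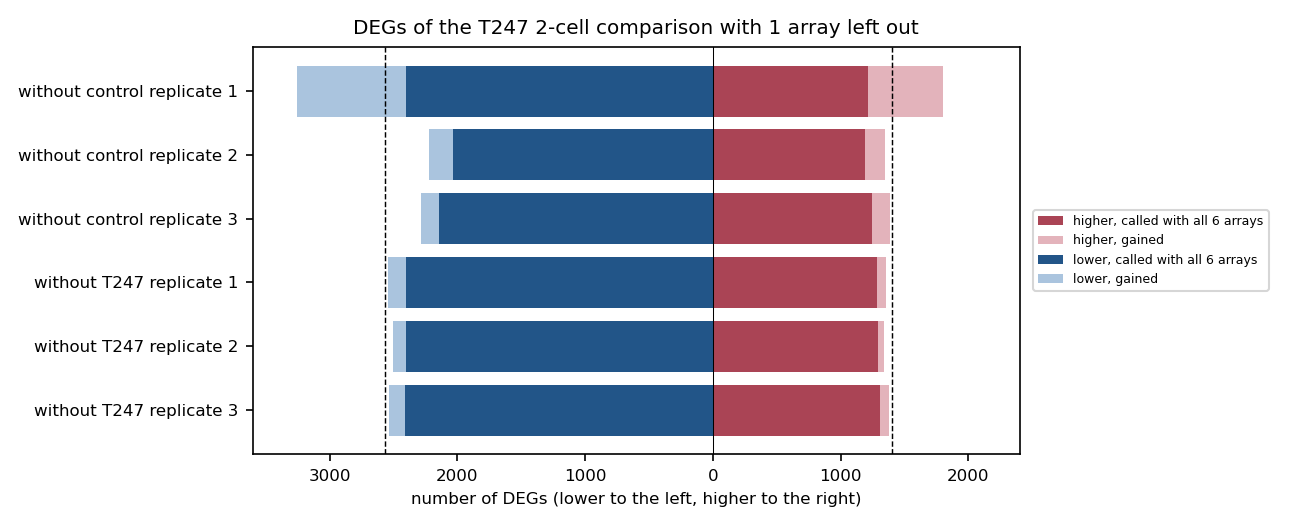
Number of DEGs with 1 array left out, lower genes to the left and higher genes to the right. Dark bars are genes also called with all 6 arrays, pale bars are genes added, and dashed lines mark the 2569 lower and 1400 higher genes of the full comparison. The pale bars are widest without control replicate 1.

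To place the changed genes in development, all genes were classed by the untreated 1-cell and 4-cell arrays alone, which hold none of the 6 arrays compared. A gene was rising or falling when it changed at least 2-fold between these stages with an adjusted p below 0.05, and level otherwise. Of 4271 rising genes, 1345 (31.5%) were lower after T247 and 469 (11%) higher. Of 6954 falling genes, 544 (7.82%) were lower and 389 (5.59%) higher, and of 4767 level genes 680 (14.3%) were lower and 542 (11.4%) higher. Against 16.1% lower over all genes, falls were thus most frequent among rising genes, and they grew with the size of the rise. Genes that rose 2 to 4-fold had 25.8% lower, those that rose 4 to 16-fold 31.1%, and those that rose at least 16-fold 38.8%.

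The median LFC was -0.52 for rising, -0.20 for falling and -0.20 for level genes, so that rising genes lay 0.26 below the median of all genes. This distance depended on the control arrays. Relative to the median of all genes, rising genes were at -0.58 without control replicate 1, at -0.08 without control replicate 2 and at -0.16 without control replicate 3. Falling genes were at 0.18, -0.01 and 0.01 relative to all genes in the same fits. Under quantile normalization rising genes were at -0.24 relative to all genes, with 1175 lower and 726 higher.

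Array by array, the same pattern could be read against the untreated 1-cell embryo. Rising genes had a median of 0.66 above the 1-cell control on control replicate 1, of 1.62 and 1.52 on control replicates 2 and 3, and of 0.92, 0.83 and 0.86 on the T247 arrays. The T247 arrays thus lay between control replicate 1 and the other control arrays, and closer to control replicate 1. Falling genes stood at -0.80 on control replicate 1, at -1.45 and -1.38 on control replicates 2 and 3, and at -1.43, -1.35 and -1.35 on the T247 arrays, which here lay beside control replicates 2 and 3. Against control replicate 1 alone, the T247 mean differed by a median of -0.10 in rising and -0.60 in falling genes. Against control replicate 2 it differed by -0.82 and 0.03, and against control replicate 3 by -0.70 and -0.03.

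**Figure D3:**
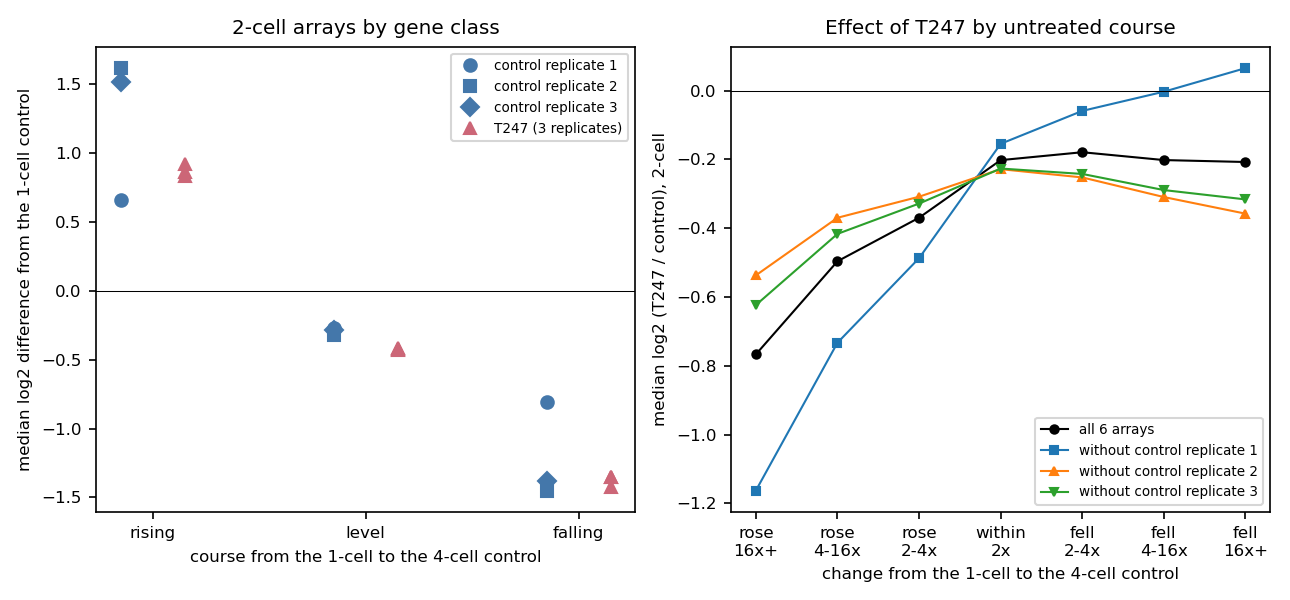
Left, median log2 difference of each 2-cell array from the 1-cell control mean in genes that rise, stay level or fall from the 1-cell to the 4-cell control. Right, median log2 ratio of T247 to control at the 2-cell stage in 7 bins of that change, with all 6 arrays and without each control replicate. The slope on the right is steepest without control replicate 1, from -1.16 to 0.07, and flattest without control replicate 2.

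Among rising genes called without each control replicate and well above background on all 6 arrays, Eid2, Apom and Smcr8 fell most, and Xbp1, Bcl3 and Ralb rose most. Ralb, a small GTPase of exocytosis, gave 6.17, 5.06 and 5.11 against 8.94, 8.83 and 8.93 (10.9-fold). Among falling genes, whose mRNA is largely inherited from the oocyte, Vax2, Dapl1 and Dcaf12l2 rose most. Dcaf12l2 gave 8.34, 6.79 and 7.77 against 11.05, 11.12 and 10.74 (10.1-fold). The largest falls of this class were in Ang, Rcbtb2 and Ppp1r35.

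Ang, a secreted ribonuclease, was 8.30-fold lower, with 5.07, 9.37 and 8.89 in the control and 4.23, 4.73 and 5.21 after T247. Here control replicate 1 overlapped the T247 arrays. Ppp1r35, a centriole assembly factor, fell 6.52-fold from 7.27, 7.52 and 7.43 to 4.59, 4.74 and 4.78, with all control arrays close together. Level genes held Gata2, Gm6811 and Adgrb1 among the rises and 4930504D19Rik, Tmprss7 (10.1-fold lower) and Rpusd3 (9.08-fold lower) among the falls. Rpusd3, a pseudouridine synthase of mitochondrial RNA, gave 8.57, 11.71 and 11.60 against 7.36, 7.47 and 7.51.

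The untreated series also gave each gene a stage of highest mean signal, with the 2-cell stage left out. The morula or blastocyst held this maximum for 45.8% of the higher genes, 40.4% of the lower genes and 33.9% of all genes tested. The 4-cell or 8-cell stage held it for 14.1% of the higher and 17.9% of the lower genes, against 9.74% of all. Oocytes or 1-cell embryos held it for 40.1% and 41.7%, against 56.3% of all genes.

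Subunits of the complex that T247 addresses were described next. Hdac3 was measured by 1 probe that was not well above background on any of the 6 arrays, so no level or fold change can be given. Tbl1x, a WD40 subunit of the complex, fell 2.71-fold from 7.93, 8.59 and 8.47 to 6.93, 6.70 and 7.05 (LFC -1.44, SE 0.16, adjusted p = 5.94e-07). Ncor1, the scaffold, had an LFC of -0.56, Tbl1xr1 of -0.53 and Gps2 of -0.43, with SEs of 0.11 to 0.12. None of these was a DEG, since each had an adjusted p below 0.05 with an LFC under 1 in size.

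Among 10 measured zinc-dependent deacetylases, 1 rose and 1 fell (10% each, beside 8.75% and 16.1% of all genes). Their median LFC was -0.12 against -0.26 for all genes. Hdac7, a class IIa deacetylase, rose 8.57-fold from 5.53, 4.60 and 4.85 to 8.25, 8.16 and 7.87 (LFC 3.10, SE 0.20, adjusted p = 1.15e-09), with no overlap. Hdac1, a class I enzyme of the SIN3 and NuRD complexes, fell 2.38-fold from 13.79, 14.82 and 14.64 to 13.29, 13.12 and 13.08 (adjusted p = 5.55e-05). Under quantile normalization Hdac1 had an LFC of -0.90 and was not called. Hdac4 had an LFC of -0.93, just short of the threshold.

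Of 27 SIN3, NuRD and CoREST subunits, 8 fell (29.6%, beside 16.1% of all genes) and 0 rose, with a median LFC of -0.79. Next to Mta2, the histone chaperone Rbbp4 fell 3.12-fold and the SIN3 subunit Suds3 2.76-fold. Of 19 histone acetyltransferases and bromodomain proteins, 7 fell (36.8%) and 0 rose, with a median of -0.55. Brd9, of the non-canonical BAF complex, was 3.01-fold lower, Brpf1, a scaffold of the MOZ acetyltransferase, 2.54-fold and Brd3, a BET protein, 2.45-fold, although Brd3 lost its call without control replicate 2. Under quantile normalization only 3 of the 27 and 2 of the 19 fell and 1 of the 19 rose, beside 1893 falls among all 15992 genes.

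Among 27 Polycomb genes, 2 rose (7.41%), 3 fell (11.1%) and 22 were not called, beside 8.75% higher and 16.1% lower of all genes. Cbx8, a chromodomain subunit of Polycomb complex 1, was among the rises. It gave 3.40, 6.32 and 6.31 against 7.12, 6.73 and 7.10, and its LFC of 1.64 (adjusted p = 0.0118) dropped to 0.67 without control replicate 1. Pcgf6, of a variant complex, fell 2.35-fold.

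Ribosomal protein and ribosome biogenesis genes held the highest shares of falls among the lists. All 80 cytosolic ribosomal protein genes were measured, and 52 fell (65%, beside 16.1% of all genes) and 0 rose. Their median LFC was -1.19, against -0.26 for all genes. Of the 80 genes, 78 belong to the rising class, in which 31.5% of genes were lower. Rps27 fell 7.72-fold from 11.09, 12.46 and 12.46 to 9.08, 9.01 and 9.07 (LFC -2.95, SE 0.25, adjusted p = 1.61e-08). Rps29 fell 5.91-fold from 13.11, 14.68 and 14.58 to 11.68, 11.51 and 11.49. Rps15 fell 5.73-fold from 11.73, 13.01 and 12.93 to 10.14, 9.98 and 10.00. All 3 encode small-subunit proteins and lay below every control array.

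The T247 arrays of this group lay below control replicate 1 as well, by less than below control replicates 2 and 3. All 3 T247 arrays lay below control replicate 1 in 73 of the 80 genes and below every control array in 71, whereas over all genes 37% lay below every control array and 16% above. The median difference of the T247 mean was -0.71 from control replicate 1, -1.56 from control replicate 2 and -1.46 from control replicate 3. Over all genes these medians were -0.42, -0.18 and -0.19, and in rising genes -0.10, -0.82 and -0.70. The share of all genes below control replicate 1 is not given here. Without control replicate 1, 65 genes fell, under quantile normalization 35 and under scaling to the 75th percentile 38, with 0 rises each time. Probes for ribosomal proteins can also bind the RNA of their many processed pseudogenes, which these signals do not separate.

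Ribosome biogenesis showed the same direction. Of 51 measured factors, 30 fell (58.8%, beside 16.1% of all genes) and 1 rose, with a median LFC of -1.13. Without each control replicate 27 of the falls were kept, and under quantile normalization 22 factors fell. Nob1, the nuclease that finishes the small-subunit rRNA, gave 6.16, 7.89 and 7.70 against 4.77, 4.15 and 4.35 (7.10-fold lower, adjusted p = 2.46e-07). Utp4, of the small-subunit processome, fell 6.59-fold from 9.83, 11.14 and 11.09 to 8.04, 7.90 and 7.96. Fbl, the rRNA methyltransferase fibrillarin, fell 5.42-fold (adjusted p = 9.05e-10), with no overlap of the groups.

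Translation initiation factors had 17 falls (41.5%, beside 16.1% of all genes) and 0 rises among 41, with a median LFC of -0.81. Under quantile normalization 9 fell and 1 rose, beside 1893 falls among all 15992 genes. Eif3c, a core subunit of the scaffold eIF3, fell 7.16-fold from 10.88, 12.24 and 11.99 to 8.91, 8.84 and 8.83 (adjusted p = 1.11e-08). Eif2b5, of the nucleotide exchange factor of eIF2, fell 4.29-fold, and Eif2s1, the alpha subunit of eIF2, 3.49-fold. Of the 41 factors, 31 had T247 arrays below every control array, as 37% of all genes did.

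RNA processing and transcription followed. Among 52 spliceosome genes 19 fell (36.5%, beside 16.1% of all genes) and 0 rose (median LFC -0.84). Under quantile normalization 12 fell and 2 rose, beside 1893 falls among all 15992 genes. Snrnp35, of the minor spliceosome, fell 6.25-fold from 10.43, 12.13 and 12.14 to 9.13, 8.81 and 8.84. Tra2a, a splicing regulator, fell 5.38-fold and the SR protein Srsf6 3.80-fold. Of 70 genes for RNA polymerase II, general factors and Mediator, 22 fell (31.4%) and 1 rose (median -0.50). Quantile normalization left 12 falls and 2 rises in this list. Med29, a Mediator subunit, fell 4.30-fold from 10.22, 12.95 and 12.84 to 10.06, 9.81 and 9.83, with control replicate 1 just above the T247 arrays. Gtf2h2, of TFIIH, fell 3.77-fold and Cdk9, the kinase of elongation factor P-TEFb, 3.75-fold. Of 34 genes of mRNA decay only 5 fell (14.7%, near the 16.1% of all genes), among them Cnot10 and Cnot1 of the CCR4-NOT deadenylase and the poly(A)-binding protein Pabpc1.

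Protein turnover was next. Of 31 proteasome subunits, 13 fell (41.9%, beside 16.1% of all genes) and 0 rose, with a median LFC of -0.80. Psmb5, the chymotrypsin-like catalytic subunit, gave 9.72, 12.79 and 12.69 against 8.89, 8.77 and 8.62 (7.88-fold lower, adjusted p = 3.47e-05). Psma3 fell 3.87-fold and Psma7 3.10-fold, both of the outer ring of the core particle. Of 34 autophagy genes, 14 fell (41.2%) and 1 rose, and the 15 calls were all kept without each control replicate. Atg13, of the initiating kinase complex, fell 4.69-fold and Atg4b, the protease of LC3, 4.17-fold. Gabarapl1, an LC3 relative, gave the rise, from 7.37, 7.44 and 6.67 to 9.30, 9.33 and 9.01 (4.15-fold). Of 35 chaperones, 11 fell (31.4%) and 1 rose, and Cct3 and Tcp1, of the CCT chaperonin, fell 4.23-fold and 3.87-fold. Hspa4 fell 3.46-fold by its brightest probe, but the mean of its probes gave an LFC of -0.53 that was not called. Under quantile normalization 9 proteasome subunits, 11 autophagy genes and 6 chaperones fell, beside 1893 of all 15992 genes. The rises were then 0, 1 and 1.

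In energy metabolism, 18 of 66 respiratory chain genes fell (27.3%, beside 16.1% of all genes) and 1 rose (median LFC -0.57). Under quantile normalization 13 fell and 4 rose, beside 1893 falls and 1888 rises among all 15992 genes. Uqcr10, of complex III, fell 4.59-fold from 10.65, 12.41 and 12.37 to 9.56, 9.68 and 9.60, and Ndufa11, of complex I, fell 3.59-fold. Ndufab1, the mitochondrial acyl carrier protein, gave 3.81, 6.59 and 6.24 against 3.85, 3.48 and 3.38. Its signal was well above background on 2 control arrays and on no T247 array, and control replicate 1 was level with the T247 arrays. Glycolysis had 3 falls and 1 rise among 22 genes, close to the rates of all genes for falls. Pfkp, a phosphofructokinase, rose 3.15-fold, and Pkm and Pgam1 fell 2.90-fold and 2.59-fold.

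For the cell cycle, 15 of 58 mitosis genes (25.9%) and 11 of 52 replication genes (21.2%) fell, beside 16.1% of all genes, with 0 and 1 rises. Their medians were -0.61 and -0.51, against -0.26 for all genes. Under quantile normalization 10 and 7 fell and 1 of each list rose, with medians of -0.29 and -0.13 against -0.04 for all genes. Kif2c, a kinesin that takes apart microtubules at kinetochores, fell 6.97-fold from 9.32, 10.30 and 10.39 to 7.32, 7.05 and 7.23. Prc1, which bundles the central spindle, fell 4.01-fold (adjusted p = 3.92e-10) and the condensin subunit Ncapd2 3.24-fold. Pole and Tk1 fell 3.29-fold and 3.20-fold, whereas Pold1, the catalytic subunit of polymerase delta, rose 3.07-fold from 7.45, 7.08 and 6.52 to 8.56, 8.59 and 8.75. Among 18 measured p53 targets 3 rose (16.7%) and 1 fell (5.56%), beside 8.75% and 16.1% of all genes. The other 14 were not called, and the median LFC of the list was -0.37, against -0.26 for all genes. In 4 members the T247 arrays lay above every control array, and in 7 below. Gadd45g rose 3.70-fold, Cdkn1a, the inhibitor p21, 3.25-fold and Btg2, an antiproliferative cofactor, 2.58-fold. The mean of the probes of Cdkn1a gave an LFC of 0.46 that was not called.

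**Figure D4:**
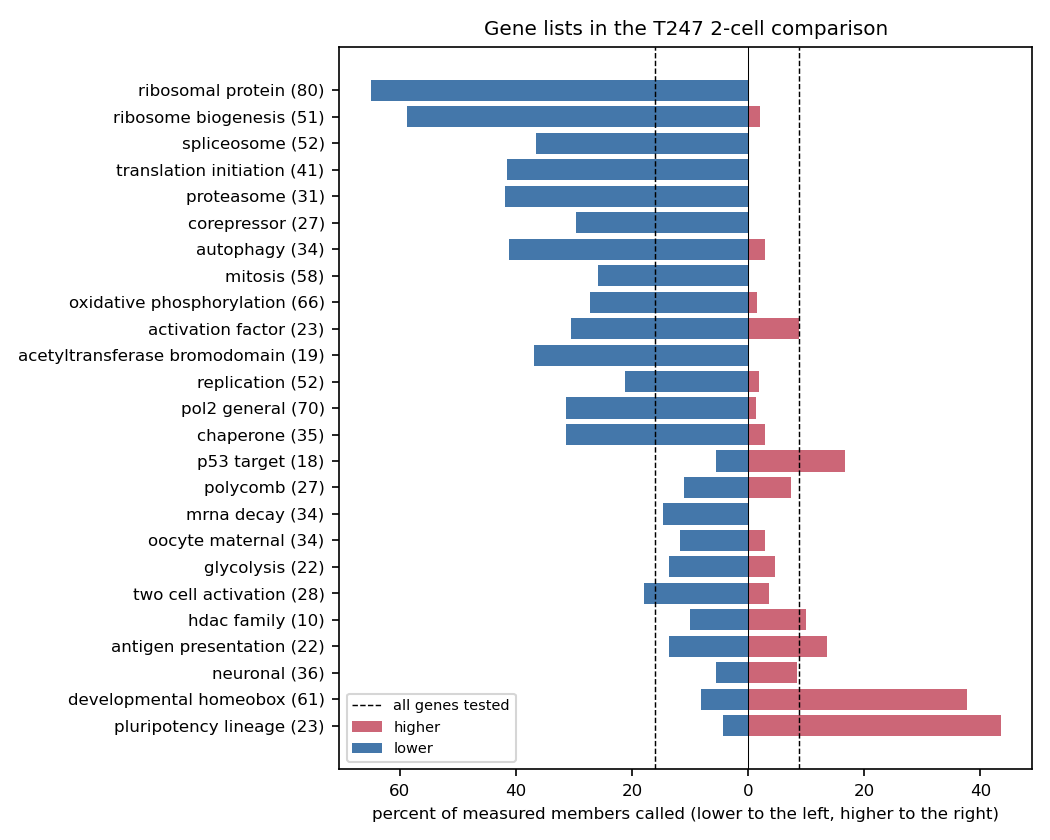
Percent of measured members that were lower (left) or higher (right) with T247 in 25 gene lists with at least 10 measured members, the number in brackets, ordered by their median LFC. Dashed lines mark 16.1% lower and 8.75% higher over all genes tested. Ribosomal proteins reach 65.0% lower, and pluripotency and lineage factors 43.5% higher.

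Factors of genome activation were split. Of 28 measured transcripts from the list for transient 2-cell activation, 5 fell and 1 rose. The median LFC of -0.17 was near that of all genes, and the share of falls (17.9%) was near the background of 16.1%. Obox6, an oocyte-type homeobox gene, gave 12.36, 13.63 and 13.75 against 10.45, 10.42 and 10.45 (6.99-fold lower, adjusted p = 5.86e-07). Dppa4 fell 5.70-fold from 10.55, 11.52 and 11.38 to 8.91, 8.53 and 8.49, and its partner Dppa2 2.78-fold from 10.36, 10.55 and 10.63 to 8.96, 9.03 and 9.13. The direction of the group's median was not stable, since it was 0.07 without control replicate 1, 0.27 under quantile normalization and 0.04 under scaling to the 75th percentile.

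Of 23 factors proposed to act in genome activation, 7 fell (30.4%, beside 16.1% of all genes) and 2 rose (8.70%, near the 8.75% of all genes). Gabpa, an ETS factor, fell 5.08-fold from 10.83, 11.33 and 11.22 to 9.06, 8.68 and 8.61 (adjusted p = 3.17e-07), and Kdm5b, an H3K4 demethylase, 3.73-fold from 13.52, 14.55 and 14.36 to 12.45, 12.14 and 12.14. Of 34 oocyte genes measured, 4 fell (11.8%, beside 16.1% of all genes), 1 rose and 29 were not called, and their median LFC of -0.29 was near that of all genes. Zar1 and Zar1l, which bind maternal mRNAs, fell 3.65-fold and 2.82-fold, and the egg coat protein Zp3 3.27-fold.

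Of 23 measured pluripotency and first lineage factors 10 rose (43.5%, against 8.75% of all genes) and 1 fell, with a median LFC of 0.96, and 5 of the rises were kept without each control replicate. Tfcp2l1, a factor of naive pluripotency, gave 5.04, 4.86 and 4.72 against 8.52, 8.23 and 8.20 (10.9-fold, adjusted p = 2.36e-08). Its untreated mean was 13.3 in the morula. Tdgf1, the Nodal co-receptor Cripto, rose 3.72-fold from 6.41, 7.01 and 6.65 to 8.53, 8.73 and 8.49. Krt18, a keratin of the trophectoderm, gave 9.14, 10.61 and 10.60 against 11.93, 11.77 and 11.79 (LFC 1.71, adjusted p = 0.0214), which was 1.22 and not called without control replicate 1.

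Of 61 measured homeobox, paired box and GATA factors, 23 rose (37.7%, beside 8.75% of all genes) and 5 fell (8.20%, beside 16.1%). Their median LFC was 0.79, and 17 of the rises were kept without each control replicate. Besides Gata2 and Vax2, the largest change was that of Nkx2-3, a factor of gut and spleen, which rose 8.84-fold from 5.65, 4.40 and 4.76 to 8.12, 8.04 and 8.09. A further 37 of the 98 genes on this list did not pass the detection filter, and 7 of the 98 were well above background on all T247 arrays and no control array. The median stayed positive under quantile normalization (0.76), under scaling to the 75th percentile (1.04) and without control replicate 1 (0.57). Normexp background correction left 12 rises and 2 falls in the list, beside 611 and 1693 among all genes.

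Neuronal genes held 3 rises (8.33%, near the 8.75% of all genes) and 2 falls (5.56%, beside 16.1%) among 36. Elavl4, a neuronal RNA-binding protein, rose 3.75-fold from 6.52, 5.12 and 6.10 to 7.96, 7.85 and 7.65, and Chgb, a granule protein, gave 4.57, 2.86 and 3.44 against 5.41, 5.30 and 5.26, with 1 control array well above background. Antigen presentation had 3 rises and 3 falls among 22 genes (13.6% each, beside 8.75% and 16.1% of all genes). The class I heavy chains H2-D1 and H2-K1 rose 4.44-fold and 2.70-fold, whereas Pdia3, a chaperone that helps load them, fell 3.82-fold from 10.27, 11.39 and 11.33 to 9.05, 9.13 and 9.01.

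Of the marker genes for other cells, Areg, Inhbb and Ptgs2 of the cumulus list were well above background on all T247 arrays and on no control array, at least 5.55-fold, 2.58-fold and 1.60-fold higher. These are also secreted factors and an enzyme that many cells make. Over the alternative processings the lowest LFC was 0.77 for Areg, 0.28 for Inhbb and 0.16 for Ptgs2. Tnp1, of the sperm list, gave 4.25, 7.87 and 7.61 in the control and 4.21, 4.23 and 4.20 after T247, so that control replicate 1 was level with the T247 arrays, and Akap4 was at least 1.96-fold higher. Prm1 was not called (LFC -0.54). The part of other cells in the result was not tested.

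Genes that passed from background to a signal were counted apart from the fold changes. Of 22339 named genes, 477 (2.14%) had a signal well above background on all 3 T247 arrays and on no control array, and 23 (0.103%) had the reverse. The wider reach of the flag on the T247 arrays, given above, moved in the same direction, and its part was not tested. Counted by the looser flag of a positive and significant signal, the numbers were 203 and 48. Of the 477 genes, 89 (18.7%) were not well above background on any array of the other untreated stages, against 51.6% of the 6498 genes silent on all 2-cell control arrays. Morulae or blastocysts showed 182 of the 477 (38.2%) on all their arrays, against 15.2% of the 6498. The 477 were chosen for a signal on the T247 arrays, whereas the 6498 include genes whose probes may give none anywhere. The shares of the 2 sets are therefore not like for like.

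Ankrd34b was the brightest of these genes. It gave 1.85, 3.55 and 3.45 on the control arrays and 9.47, 9.25 and 9.19 on the T247 arrays, at least 57.2-fold higher. Slc35g2, a solute carrier, gave 3.94, 3.83 and 3.51 against 8.00, 8.98 and 8.92, at least 28.4-fold higher. Mrgprg, a receptor of sensory neurons, was at least 21.8-fold, Klra1, a receptor of natural killer cells, at least 16.6-fold, and Wnt16, a Wnt ligand, by its brighter probe at least 15.6-fold higher. The other probe of Wnt16 had an LFC of 1.44 and lost its call without control replicate 2. These 5 genes were dark on every control array and, at the same stage after MGCD0103, well above background on all 3 arrays. Over the alternative processings the lowest LFC was 2.45 for Slc35g2, 2.02 for Mrgprg and 1.82 for Klra1.

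Of the 23 genes in the other direction, Rprd2, which binds the tail of RNA polymerase II, was the brightest, with 5.54, 6.86 and 6.69 on the control arrays and 3.65, 1.56 and 1.93 on the T247 arrays, at least 9.98-fold lower. By the same kind of bound Fam209 was 5.86-fold lower and Gm4544 4.74-fold. Other processing gave smaller falls, with LFCs of -1.07 for Rprd2, -0.75 for Fam209 and -0.68 for Gm4544 at the weakest. Trmt61b, a methyltransferase of mitochondrial RNA, was at least 3.97-fold and Mmp25, a matrix metalloproteinase, at least 3.38-fold lower. Without control replicate 1 the number of such genes was 183.

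The same treatment was measured at 12 h and 48 h post-insemination with control arrays of those stages. T247 raised 902 genes (5.64%) and lowered 148 (0.925%) at the 1-cell stage, whose T247 arrays were on the same slide as those of the 2-cell stage. At the 4-cell stage it raised 1807 (11.3%) and lowered 1027 (6.42%). Of the 1400 genes higher at the 2-cell stage, 412 (29.4%) were already higher at the 1-cell stage, which is 45.7% of the 902, and 531 (37.9%) were higher at the 4-cell stage, 29.4% of the 1807. Of the 2569 lower genes, 46 (1.79%) were lower at the 1-cell stage, 31.1% of the 148, and 149 (5.80%) were among the 1027 lowered at the 4-cell stage. The last share was near the background of 6.42%. All 3 stages shared 237 higher and 8 lower genes.

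The median LFC of the 2569 lower genes was -1.39 at the 2-cell stage, on which they were chosen, and -0.10 at the 1-cell and -0.23 at the 4-cell stage. That of the 1400 higher genes was 1.49, with 0.51 before and 0.74 after. The median of all genes was 0.00 at the 1-cell and -0.02 at the 4-cell stage. Vax2 stayed high, with LFCs of 3.59, 4.15 and 2.01 over the 3 stages, as did Hdac7 with 2.65, 3.10 and 1.62, and Tdgf1 with 1.71, 1.90 and 1.48. Gata2 was called later, with 0.65 at the 1-cell stage (adjusted p = 0.226) and 4.04 at the 4-cell stage.

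Among genes higher at all 3 stages, Gm6811, Mrgprg and 2310005E17Rik ranked first by the smallest of their 3 LFCs. Each was well above background on all 3 T247 arrays of every stage and on at most 1 control array of the 1-cell and the 4-cell stage. In the other direction Sft2d3 fell 3.12-fold at the 2-cell stage, from 4.88, 6.76 and 6.48 to 4.46, 4.26 and 4.47, with LFCs of -1.11 and -1.20 at the 1-cell and 4-cell stages. Zbtb11os1 was well above background on 3 control arrays and 1 T247 array of the 2-cell stage but on no array of the 1-cell stage. Sult1a1 was well above background on 1 control array and no T247 array, and normexp background correction turned its sign (LFC 0.01).

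At the 4-cell stage the LFC was -0.09 for Xbp1, -0.11 for Apom, -0.10 for Stmn3, -0.43 for Mta2 and -0.59 for Cbx3, none of which was called there. A limma test of the difference in LFC between the 4-cell and the 2-cell stage passed for Xbp1 (adjusted p = 2.51e-06), Apom (1.91e-07) and Mta2 (1.13e-06). These genes were chosen by their 2-cell LFC, which the test also uses, so the choice itself favours a smaller effect at the 4-cell stage. Among the gene groups, ribosomal protein genes had 0 falls by the limma calls in 1-cell as in 4-cell embryos, with median LFCs of 0.09 and -0.30, and ribosome biogenesis also had 0, with medians of 0.13 and -0.23.

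**Figure D5:**
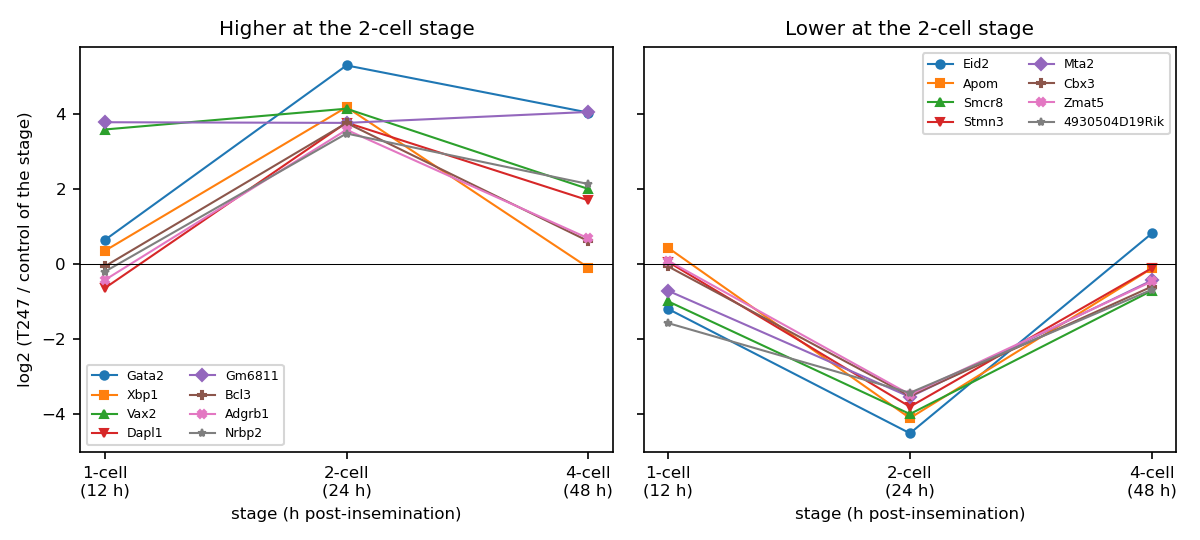
Fitted LFC of T247 against the control of the same stage (horizontal axis, stages with hours post-insemination) for the 8 genes with the largest rise (left) and the 8 with the largest fall (right) at the 2-cell stage. Values include stages at which a gene was near background, such as Eid2 and Bcl3 at the 1-cell stage. None of the 8 falls was called at the 4-cell stage, where their LFCs ran from -0.70 in Smcr8 to 0.82 in Eid2.

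MGCD0103 was measured at the 2-cell stage against the same 3 control arrays, which both comparisons share, so the values are given side by side. It raised 1943 genes (12.1%) and lowered 2460 (15.4%). Gata2 had an LFC of 5.20 with MGCD0103 and 5.30 with T247, Xbp1 of 4.33 and 4.19, and Hdac7 of 2.96 and 3.10. Eid2 was not well above background on any MGCD0103 array. Apom stood at -4.89 and -4.10, Mta2 at -4.38 and -3.53, and Rps27 at -3.46 and -2.95. Zar1 stood at -0.71 with MGCD0103 and -1.87 with T247.

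By position, the share of higher genes was largest on the X chromosome. Of 584 genes on the X, 92 (15.8%) were higher and 64 (11%) lower, with a median LFC of -0.08. On the autosomes the higher share ran from 6.53 to 10.5%. By kind of gene, 95 of 689 lncRNA genes (13.8%) were higher and 77 (11.2%) lower, and 57 of 168 pseudogenes (33.9%) were lower.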

How the data were processed

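RNA of 100 pooled embryos per sample was labelled with 1 dye and hybridised to Agilent mouse arrays, 3 biological replicates per condition according to the study's methods. The authors deposited scanner output per array, whose intensity values Feature Extraction had background-subtracted and detrended within the array (version 9.5.1.1 per the submitters' processing notes, 10.7.1.1 per the file headers), and a table of their normalized log2 values, used here as an alternative. Of 55681 probes, 24283 had no current gene name and the others were named through RefSeq accession, symbol or synonym.

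From the deposited intensities, a probe was kept if each of the 8 conditions fitted (24 arrays) had 1 or more positive and significant signals, missing spots (2.92% of values) were filled in, values were put on the log2 scale, and the arrays were scaled by smooth quantile normalization. The fill-in and the scaling were written for this work after the study's description. The brightest probe stood for a gene. The 8 conditions were fitted together in limma 3.58.1 (R 4.3.3) with no covariate, and a DEG needed an LFC of 1 and an adjusted p of 0.05. A gene not well above background on any array of its dimmer group was given only a bound, its brighter mean against its dimmer mean. For this, dim signals under the lowest signal well above background on their array were raised to it. Such a bound holds for its own processing and is not a minimum over the alternatives. Only 3 arrays per group limit the precision. The script was tested on simulated data.

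Genes were named by rank: the 8 largest changes in each direction without overlap and well above background on all 6 arrays, the 5 brightest genes passing from or to background, the 3 largest changes of each gene list, course class and leave-one-out set, and the 3 largest changes shared by 3 stages, with subunits of the HDAC3 complex. Some genes that this rule names are not reported here. Other genes, Hdac4, Prm1 and the marker genes, were named for their role. The gene lists and the comparison were chosen with earlier results of these data known. Replicate numbers did not pair the arrays, with correlations of deviations of -0.18, -0.13 and -0.06 for equal numbers.

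Alternatives covered scaling, background correction, detection filter and flag, probe choice, arrays in the fit, replicate block, slide as a random block, array weights, the authors' values and each array left out. Leaving out T247 arrays for the kept calls was added after seeing the data.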

Additional observations from a re-analysis of the deposited data

Results flagged for a closer look

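The effect of T247 at the 2-cell stage was tested against its effect at the other stages as an interaction in limma, each stage with its own control arrays. Against the 1-cell stage, 737 genes had a higher and 2343 a lower effect. Between the 2-cell and the 4-cell stage, 2973 of all 15992 genes moved up and 1273 moved down. Of the 1400 genes higher at the 2-cell stage, 532 (38%) had a smaller effect at the 4-cell stage, and of the 2569 lower genes 1539 (59.9%) did. Both sets were chosen on the 2-cell effect that the test also uses, which favours a smaller effect later, so these shares are description only.

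Among 24283 probes without a current gene name, 470 were well above background on all T247 arrays and no control array, and 76 were on all control arrays and no T247 array.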

How the results depend on the processing

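With 1 array left out, DEGs ranged from 3569 to 5056, higher genes from 1343 to 1799, lower genes from 2219 to 3257, lower genes of the rising class from 1043 to 1805, higher genes of the falling class from 301 to 753, the difference between the 2-cell and 1-cell effects from 2698 to 4636 genes, that between the 4-cell and 2-cell effects from 3825 to 5623, genes passing to a signal from 497 to 699 and genes passing to background from 26 to 183. The upper ends of the falling-class count (753), of the 2-cell and 1-cell difference (4636) and of the genes passing to background (183) were without control replicate 1, with 40 such genes without control replicate 3 and 58 without T247 replicate 3.

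Normexp background correction gave 2304 DEGs (611 higher, 1693 lower), with 160 higher in the rising class, 254 lower and 134 higher in the falling class, and 1965 and 2483 genes for the differences between stages. It also turned the LFC of Sult1a1 to 0.0068. The authors' values gave 2625 DEGs (608 higher), with 177 higher rising, 193 higher falling and 2775 genes for the 4-cell and 2-cell difference. Quantile normalization gave 726 higher rising and 259 lower falling genes, and 75th percentile scaling 819 and 176, with 1687 lower in all. Array weights gave 687 higher falling genes and 4824 genes for the 2-cell and 1-cell difference. The positive and significant flag gave 203 genes passing to a signal and 48 to background. The cause of these shifts was not tested.

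With the replicate block, in the fit of the 6 arrays alone, 2346 genes were DEGs (924 higher, 1422 lower), with 639 lower rising, 355 lower falling and 223 higher falling. The same fit with no replicate block gave 1182 higher and 2097 lower genes. The numbers do not pair the arrays. Slide and scan date cannot be told apart from treatment between these groups, and genes near background have only bounds.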
